A study of Mus musculus with 4 samples.

Results

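The 49 genes described here encode the machinery of mitosis. They are the entry cyclins and phosphatases, the mitotic kinases and the chromosomal passenger complex, the spindle checkpoint, the anaphase-promoting complex and chromatid separation, spindle motors and spindle proteins, cytokinesis, the centromere and kinetochore, and chromosome structure. They were taken by name from a list chosen for this role, and all 49 were found among the 54532 gene IDs measured. Total RNA of wild-type C57BL/6 mouse fetuses was sequenced at E11.5, E13.5 and E15.5 and, late in gestation, at E18.5, where E counts days of embryonic development, with 1 sample for each of the 4 stages. The samples are labelled as fetal pancreas, and the series names the material as pancreatic epithelium. No treatment or engineered allele separates the groups. The sources used here do not say how the epithelium was obtained. Stage is therefore the only labelled difference, and each level below is the authors' average for a stage.

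In mitosis, cyclin-dependent kinase 1 bound to cyclin A or B drives chromosome condensation and spindle assembly. Kinetochores, built on centromeric chromatin, attach the condensed chromosomes to spindle microtubules, and the spindle checkpoint holds the anaphase-promoting complex inactive until attachment is complete. That complex then marks securin and cyclin B for destruction, the chromatids part, and the central spindle directs cytokinesis. The transcripts of most of these genes accumulate in the G2 and M phases, so their level in a tissue is widely read as a measure of dividing cells. In the fetal pancreas, progenitors divide in the early epithelium and acinar cells go on dividing late in gestation, while newly formed endocrine cells are largely out of the cycle. In bulk samples such as these, fewer dividing cells and less of a transcript per cell cannot be told apart.

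Each deposited average is given in FPKM (fragments per kilobase of exon, here scaled by a denominator per library). The averages could be taken apart into the whole reads of 2 libraries per stage for 36 of the 49 members in every stage, which gives a value per library and an SD. Estimated reads per library were between 1.37e+07 and 1.80e+07. Within a stage the ratio of Y-linked reads to Xist reads was nearly the same in both libraries, at 13.8 and 15.1 per 100 Xist reads in the E15.5 pair and 273 and 295 in the E18.5 pair. At E11.5 it was 95.9 and 99.8, and at E13.5 110 and 109. The ratio thus differed between stages, so a difference in the sex makeup of the samples cannot be told apart from stage. Its part in the levels below was not tested. The labels do not say that the libraries came from separate animals, so SDs and p-values measure only the spread between libraries, which may be technical. The test was run only on genes split at every stage. This leaves out Cdc25c, Incenp, Kif11 and Kif20a, whose averages no pair of whole reads gave at any stage, and also Ccnb2, Birc5, Bub3, Cdc20, Ube2c, Cenpe, Cenpf, Spc24 and Smc4, which were too deeply covered for a single answer in at least 1 stage. The 15 epithelial markers summed to 1345, 3621, 4342 and 5006 scaled FPKM from the first stage to the last, and all 15 were at 1 FPKM or more at each stage.

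Many mitotic genes share 2 promoter elements. One is the CCAAT box, which the factor NF-Y binds. The other is the cell cycle genes homology region, or CHR, usually TTTGAA and in some genes TTTAAA, through which the DREAM complex holds them down in resting cells and MYB-containing complexes with FOXM1 raise them in G2. The 5 members with the highest level at E13.5 among those that could be shown from the RefSeq promoter table and held both elements come first, because they carry the layout that most members share. Each run is 300 bases on the gene's own strand, 5′ to 3′, from 250 bases before to 50 bases after the annotated start in GRCm38.p6. Capitals mark the CCAAT box and both forms of the CHR on either strand. On the other strand the box reads ATTGG, and the usual CHR then reads TTCAAA. Ube2c lies at chr2:164769679-164769978 on the plus strand. The other 4 lie on the minus strand, Cdc20 at chr4:118437294-118437593, Ccnb2 at chr9:70421505-70421804, Cdk1 at chr10:69352863-69353162 and Ccnb1 at chr13:100786437-100786736.
Ube2c: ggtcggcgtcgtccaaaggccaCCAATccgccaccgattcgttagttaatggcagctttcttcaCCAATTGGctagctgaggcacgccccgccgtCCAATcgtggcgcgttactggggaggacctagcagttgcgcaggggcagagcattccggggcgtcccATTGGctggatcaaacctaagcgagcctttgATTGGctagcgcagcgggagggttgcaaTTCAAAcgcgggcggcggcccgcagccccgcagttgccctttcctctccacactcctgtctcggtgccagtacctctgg
Cdc20: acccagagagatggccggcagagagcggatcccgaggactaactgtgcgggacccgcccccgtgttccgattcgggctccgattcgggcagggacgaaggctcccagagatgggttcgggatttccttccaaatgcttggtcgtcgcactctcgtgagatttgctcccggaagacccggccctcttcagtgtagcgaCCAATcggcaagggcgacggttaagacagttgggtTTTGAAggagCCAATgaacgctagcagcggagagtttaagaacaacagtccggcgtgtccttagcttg
Ccnb2: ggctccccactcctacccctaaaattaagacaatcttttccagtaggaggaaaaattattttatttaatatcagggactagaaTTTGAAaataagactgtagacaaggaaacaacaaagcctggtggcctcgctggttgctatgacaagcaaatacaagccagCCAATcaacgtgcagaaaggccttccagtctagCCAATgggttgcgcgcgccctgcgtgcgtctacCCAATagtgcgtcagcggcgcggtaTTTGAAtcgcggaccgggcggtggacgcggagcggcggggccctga
Cdk1: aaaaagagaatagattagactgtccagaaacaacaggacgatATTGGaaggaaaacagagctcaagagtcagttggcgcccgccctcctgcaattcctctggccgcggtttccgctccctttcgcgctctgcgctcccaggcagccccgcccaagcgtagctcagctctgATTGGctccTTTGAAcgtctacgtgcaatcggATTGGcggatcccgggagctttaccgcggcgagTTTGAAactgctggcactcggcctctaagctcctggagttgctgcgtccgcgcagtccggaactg
Ccnb1: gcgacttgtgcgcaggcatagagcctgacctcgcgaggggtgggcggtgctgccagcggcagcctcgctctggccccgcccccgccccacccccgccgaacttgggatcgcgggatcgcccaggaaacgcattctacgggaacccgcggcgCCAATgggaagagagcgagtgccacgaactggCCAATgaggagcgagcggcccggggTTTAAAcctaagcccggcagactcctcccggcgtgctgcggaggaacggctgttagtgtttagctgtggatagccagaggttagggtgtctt

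Ube2c held 6 CCAAT boxes, and its TTTGAA, on the other strand, began at -29 from the start site. Cdk1 held TTTGAA at -71 and at -15, and Ccnb2 held it at -167 and at 5. In Ccnb1 the element was TTTAAA, at -42, downstream of CCAAT boxes at -67 and -99. The nearest CCAAT box upstream of the element closest to the start site began at -57 in Ube2c, -48 in Cdk1 and -21 in Ccnb2. In Cdc20 it began at -53, before TTTGAA at -18.

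A further pair was chosen after its values were seen, because the levels of these genes moved apart from most members between E11.5 and E15.5. Mki67, at chr7:135716330-135716629 on the minus strand, held CCAAT boxes and 2 TTTGAA runs, and Nuf2, at chr1:169531415-169531714 on the minus strand, held neither motif in its window.
Mki67: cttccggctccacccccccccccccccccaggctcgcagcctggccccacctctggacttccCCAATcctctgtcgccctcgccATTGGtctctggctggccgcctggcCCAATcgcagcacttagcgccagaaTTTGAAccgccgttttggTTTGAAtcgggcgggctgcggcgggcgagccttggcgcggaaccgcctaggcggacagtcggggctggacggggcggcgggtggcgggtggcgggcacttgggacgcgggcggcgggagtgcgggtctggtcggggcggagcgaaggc
Nuf2: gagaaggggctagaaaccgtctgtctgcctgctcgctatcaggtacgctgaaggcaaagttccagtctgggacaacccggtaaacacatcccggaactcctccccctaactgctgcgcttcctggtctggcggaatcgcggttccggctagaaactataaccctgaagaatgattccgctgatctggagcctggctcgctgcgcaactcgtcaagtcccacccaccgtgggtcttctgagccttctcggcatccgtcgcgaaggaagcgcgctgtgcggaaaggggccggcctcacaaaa

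The RefSeq table held a window for 40 of the 49 members, with 43 windows in all. Ccna2, Cdc25c, Foxm1, Aurkb, Incenp, Kif20a, Tpx2, Spc24 and Smc4 were not matched. CCAAT on either strand was found in 34 of the 43 windows (79.1%), against 37.4% of all 32851 windows of the same length. TTTGAA was found in 33 (76.7%), against 17.9% of all, and both motifs stood together in 30 (69.8%), against 6.95%. TTTAAA was in 9 windows (20.9%, against 13.2%). Motifs of the E2F type (TTTCCCGC, TTTCGCGC, TTTGCCGC or TTTGGCGC, on either strand) were in 3 windows, those of Cdk1, Ncapg and Ncapd2 (6.98%, against 2.26%). Matches that overlapped each other, as at -186 and -183 in Ube2c, were each counted. Bub3, Prc1 and Ect2 each had 2 overlapping windows, so their sites were counted at 2 distances, here and in the positions below. By gene, CCAAT was in 31 and TTTGAA in 30 of the 40 members. In the DNA replication genes, which are raised at the G1 to S transition, the order was the other way, with TTTGAA in 11.1% of 36 windows and an E2F motif in 36.1%. CCAAT was in 58.3% of these windows, also above the 37.4% of all windows. A set of 80 further mitotic genes lay between, with TTTGAA in 43.7% and CCAAT in 63.4% of 71 windows.

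The motifs differed in median position. The 41 TTTGAA matches had a median first base at -15 from the start site and 31 of them lay between 100 bases before and 50 after it. The 74 CCAAT matches had a median at -69.5, and 50 of them lay in the same interval. Mad2l1, Pttg1, Nusap1, Nuf2 and Ncaph held none of the motifs searched. A match is a description of these letters and not a bound site.

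**Figure D1:**
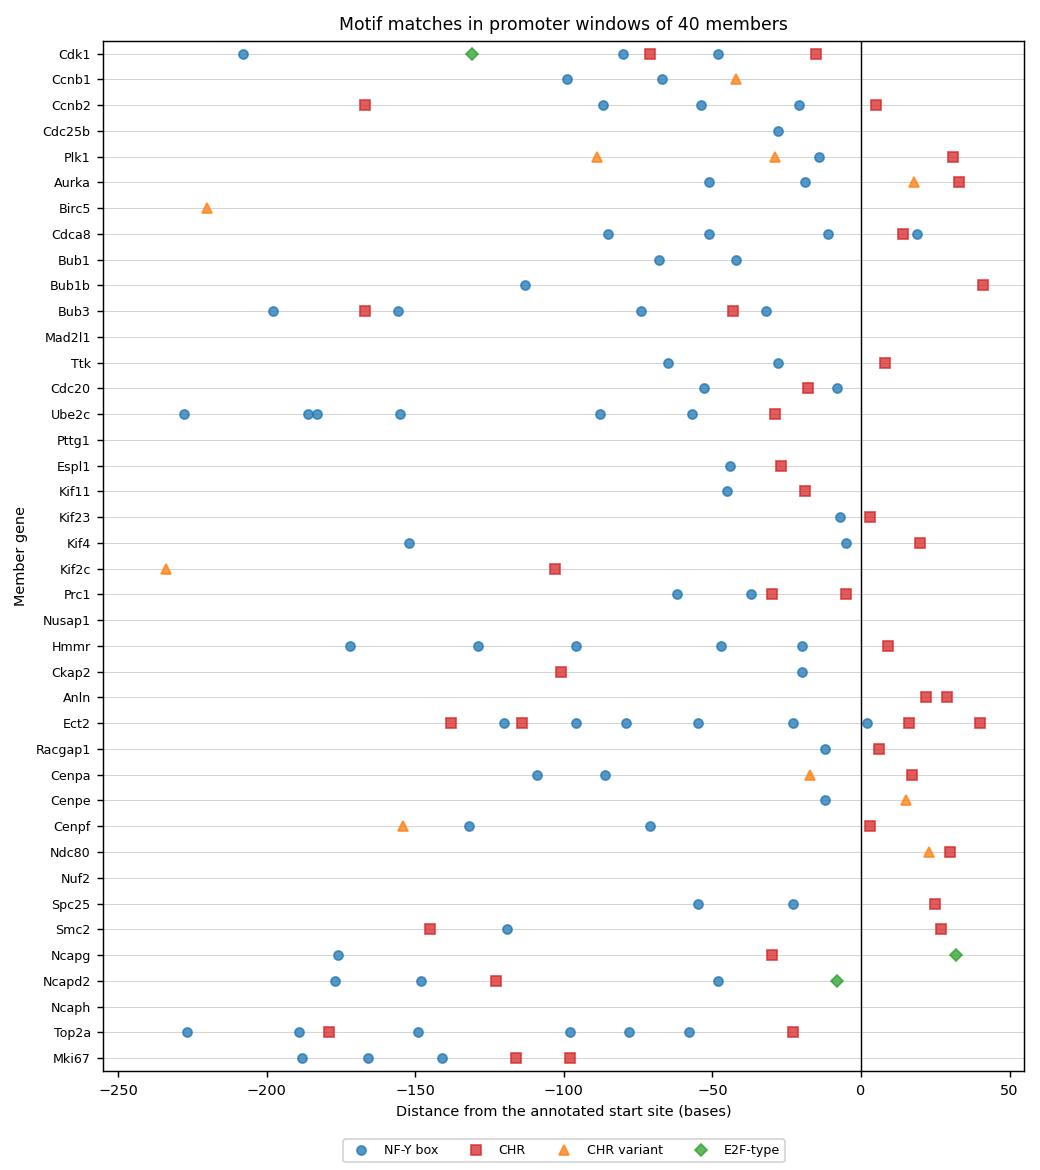
Distance in bases of each motif match from the annotated start site (x axis) in the promoter windows of 40 members (y axis), with NF-Y boxes (CCAAT) as circles, the CHR (TTTGAA) as squares, its variant (TTTAAA) as triangles and E2F-type motifs as diamonds. Most squares gather around the start site, with a median of -15, and most circles lie upstream of them, with a median of -69.5.

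Members with and without TTTGAA, and those with and without CCAAT, were close in their late difference. From E13.5 to E18.5 the median difference was -1.07 on the log2 scale in the 30 members with TTTGAA and -1.09 in the 10 without it, which were Birc5, Bub1, Ccnb1, Cdc25b, Cenpe, Mad2l1, Ncaph, Nuf2, Nusap1 and Pttg1. Of these 10, Birc5, Ccnb1 and Cenpe held the variant TTTAAA, so the group is not one without any form of the CHR. Members with and without CCAAT had medians of -1.07 and -1.09. These medians are given with no test.

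All 49 members were at 1 FPKM or more in at least 1 stage, and 46 reached 5 FPKM in some stage, the others being Foxm1, Espl1 and Anln. After scaling of each stage by the median ratio over 9884 expressed genes, the members' levels summed to 1766, 1708, 1945 and 780 FPKM in stage order, which here runs from E11.5 through the middle stages to E18.5. The level was lowest at E18.5 in 46 members, all but Cdc25b, Kif20a and Prc1, and highest there in none. The highest stage on this scaling was E11.5 for 27 members, E13.5 for 8 and E15.5 for 14. The fall late in gestation was thus common to nearly all members, while the earlier course differed from gene to gene. With every stage set to the same FPKM total, 4 members had a positive difference from E13.5 to E15.5, against 26 here. Of the 14 maxima at E15.5, only that of Spc24 remained at that total, with steps of 0.41, 0.088 and -1.65 in order. The members' share of all FPKM was 0.574%, 0.504%, 0.372% and 0.168% in stage order, but acinar products took 23.2% and 14.9% of all FPKM in the later pair of stages.

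**Figure D2:**
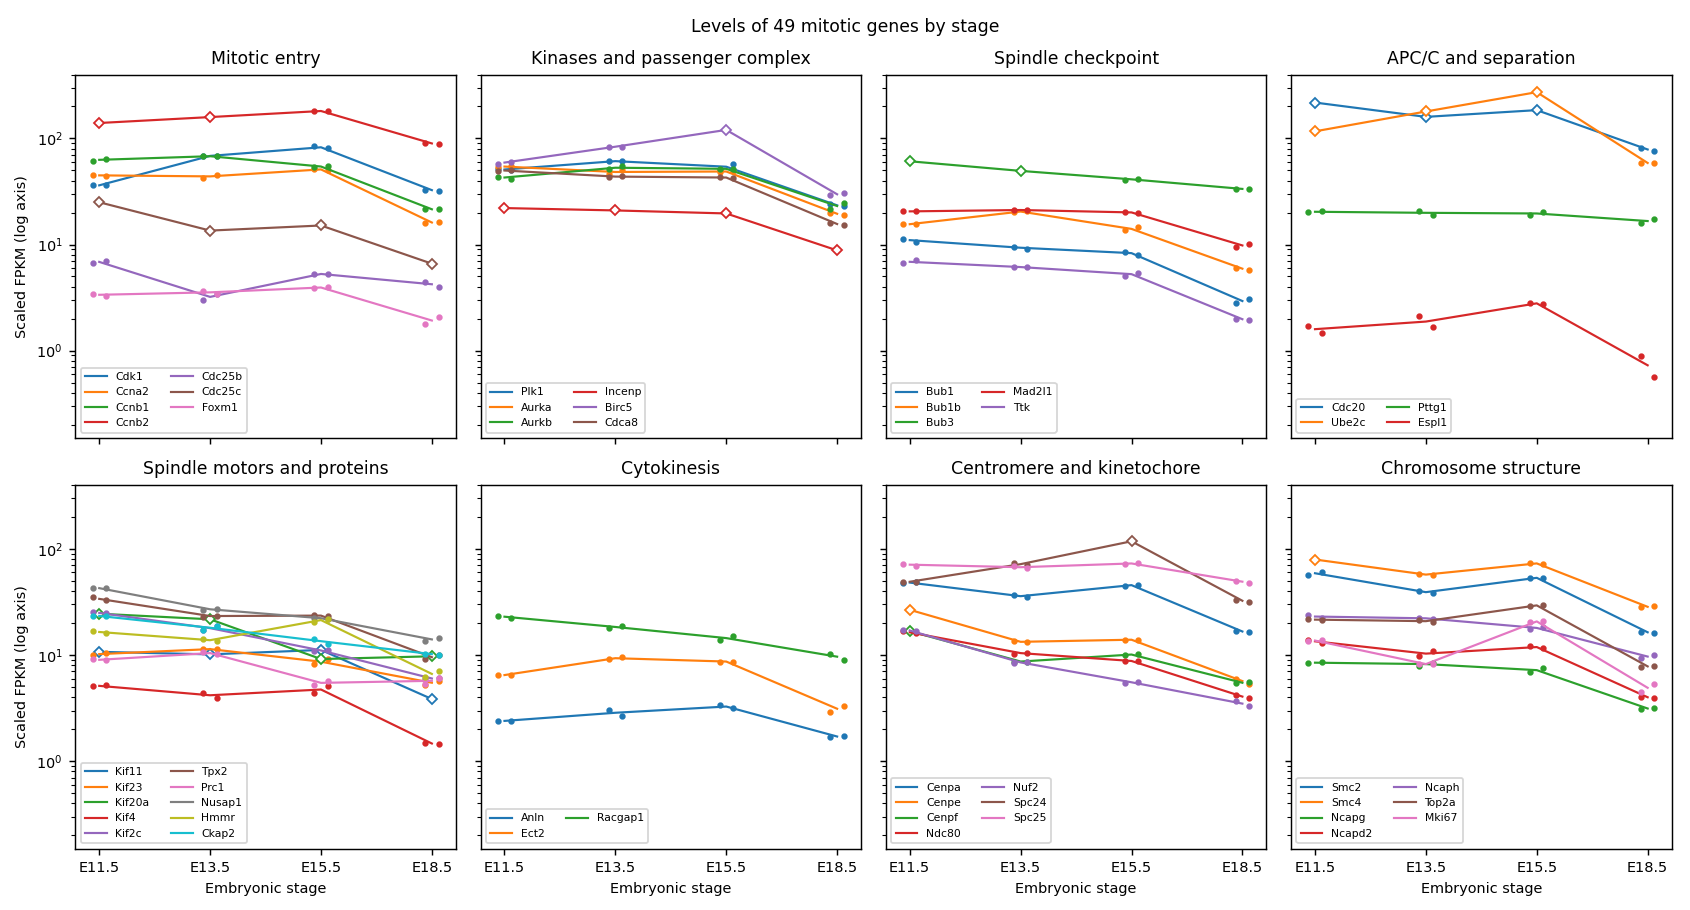
Scaled FPKM on a log axis (y) at 4 embryonic stages (x) for the 49 members in 8 panels by role, with lines through the authors' stage averages, filled points for the 2 recovered libraries and open diamonds for averages that could not be split. Most lines are lower at E18.5 than at any earlier stage, and Ube2c, for example, is at 58.7 there after 273 at E15.5.

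**Figure D3:**
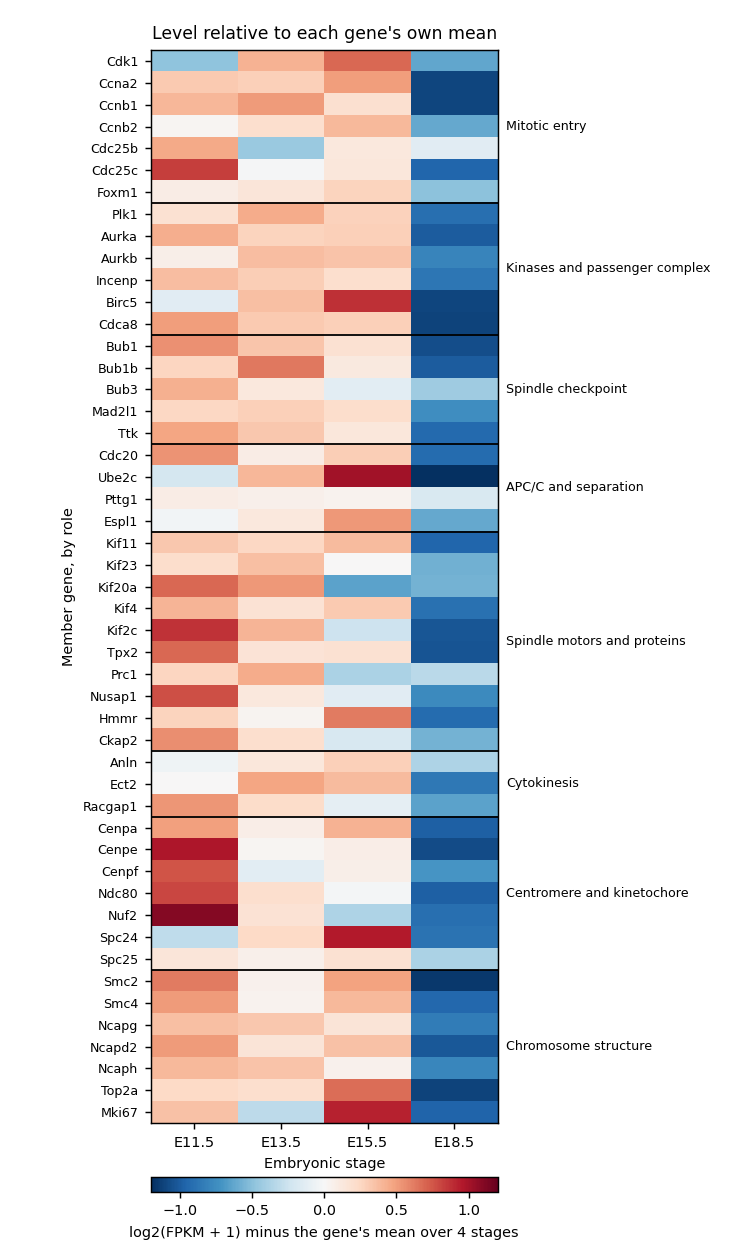
Difference of log2(FPKM + 1) from each gene's own mean over the 4 stages (colour) for the 49 members in order of role (y axis) at each stage (x axis). The E18.5 column is below the mean in all members, while the high stage is E11.5 for Nuf2 and Cenpe and E15.5 for Ube2c, Spc24, Birc5 and Mki67. At the same FPKM total the step to E15.5 was -0.02 for Ube2c, -0.10 for Birc5 and 0.088 for Spc24. Mki67 there changed by -0.81 to E13.5 and by 0.66 to E15.5, so E15.5 was not its highest stage.

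Stage differences were taken as log2(FPKM + 1), later minus earlier, so the change of low genes is understated. A gene is called lower or higher by size where this difference is at least 1 (2-fold) and the higher level is at least 5 FPKM. The limma test on the recovered libraries, with Benjamini-Hochberg adjustment over 13062 genes at 0.05, could be applied to 36 members, and "rose" and "fell" refer to it. The 4 comparisons share stages and are not independent of each other.

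At E13.5 against E11.5 no member passed the rule of size, where 5.77% of all measured genes were higher and 5.73% lower. Limma found 8 of 36 members risen (Cdk1, Ccnb1, Plk1, Aurkb, Bub1b, Prc1, Anln and Ect2) and 17 fallen, against 30.9% and 37.2% of all tested genes, so the share that rose was below the background and the share that fell somewhat above it. The count of risen members was 5 without E11.5 library 1, without E11.5 library 2 or without E13.5 library 1. Libraries of both stages were available for 38 members, of which 13 were higher and 20 lower without overlap, where the background over all tested genes was 39.6% and 45.7%. The member median was -0.14, beside -0.03 over all measured genes. With every library set to the same FPKM total, 4 members rose and 23 fell. The differences of 8 of the 49 members, Ccnb1, Foxm1 and Mad2l1 among them, changed sign under at least 1 scaling.

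Between E13.5 and E15.5 the members scattered around no change, with a median of 0.01 beside 0 over all genes. By size only Mki67 was higher (background 3.64%) and only Kif20a lower (background 1.48%). By limma 10 members rose and 14 fell, against 28.5% and 27% of all tested genes. Of 39 members with libraries at both stages, 16 were higher and 17 lower without overlap, against 39.3% and 38.8%. The direction here depended on the scaling. With every library set to the same FPKM total, which moves the median of all genes to -0.41, 1 member rose and 32 fell, and 22 of the 49 differences changed sign under at least 1 scaling. The rise of Cdk1, Ccna2, Espl1, Cenpa, Smc2, Ncapd2 and Top2a at this step is therefore relative to the median gene and became negative at the same total, while Mki67, Hmmr and Cdc25b were still at 0.66, 0.0026 and 0.073 there, so that of these Hmmr and Cdc25b were close to no difference.

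From E15.5 to E18.5 the members moved together. By size 28 of 49 were lower and none higher, against 5.55% and 6.29% of all measured genes. Limma found 35 of 36 fallen and none risen, against 30% and 38.4%, and the remaining member was Prc1. In 40 of 41 members with libraries at both stages every E18.5 library lay below both E15.5 libraries, where the background was 36.6%, and none lay above, where it was 46%. The median was -1.13, beside 0.04 over all measured genes. The largest differences were those of Ube2c (-2.20), Birc5 (-1.98) and Mki67 (-1.88), and the upper end was held by Kif20a (0.08), Prc1 (0.05) and Pttg1 (-0.22). At the same FPKM total 20 members were lower by size, 33 fell and 1, Prc1, rose by limma.

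Measured over the longer span from E13.5 to E18.5, 30 of 49 members were lower by size and none higher, against 3% and 5.34% of all genes. Limma found 35 fallen and 1 risen, Cdc25b, where 24% and 36% of all tested genes were called, and at the same FPKM total Cdc25b was at -0.044. Libraries of the 2 stages did not overlap in all of the 41 members that had them, 40 lower and 1 higher, against 33.4% and 46.6%. The median was -1.09, beside 0.06. The lower end was Bub1b (-1.63), Ccnb1 (-1.62) and Ube2c (-1.60), and the upper end Cdc25b (0.31), Pttg1 (-0.24) and Spc25 (-0.45).

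**Figure D4:**
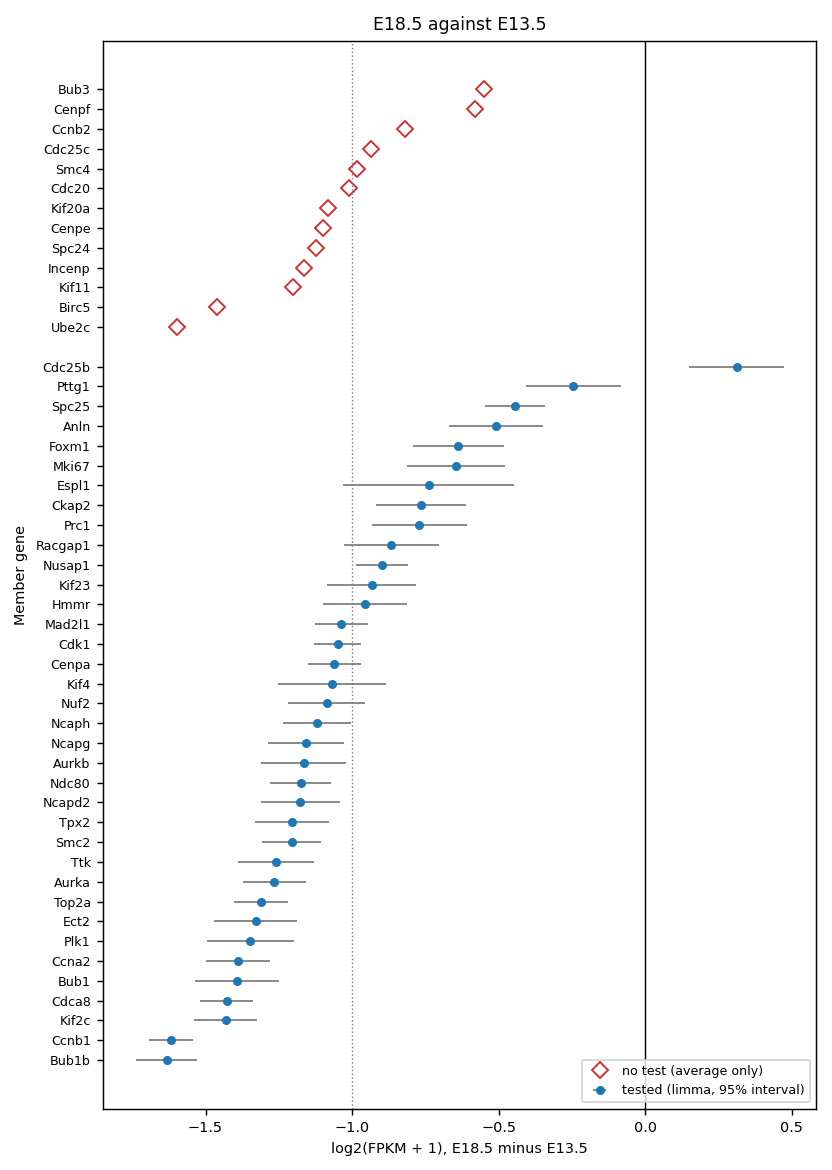
Difference of log2(FPKM + 1) between E18.5 and E13.5 (x axis) for the 49 members (y axis), as limma estimates with 95% intervals (filled points, 36 members) or as the difference of the authors' averages with no test (open diamonds, 13 members); the dotted line marks 2-fold. Cdc25b lies above 0 at 0.31, a value that was -0.044 at the same FPKM total, and the other members lie below 0 down to -1.63 in Bub1b.

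Among the mitotic entry genes, Cdk1, the kinase that drives entry, went from 36.0 and 36.2 FPKM in its first pair of libraries to 68.8 and 68.0, then 84.1 and 80.8, and last 32.9 and 32.2 in stage order. Both middle stages stood clear of both ends, and E18.5 lay a little below E11.5. The rise from E11.5 to E13.5, 1.89 times in FPKM, was the largest upward difference of any member at that step (log2 0.90, SE 0.0337, limma adjusted p = 1.83e-06). It fell after E15.5 by 1.32 on the log2 scale (SE 0.0337, limma adjusted p = 1.14e-06). The gene lies at chr10:69335146-69352938 on the minus strand.

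Of the cyclins, only Ccnb2 shared the course of Cdk1 on the median-ratio scaling, higher at each step to E15.5 and then lower. The steps of Ccnb2, 0.18, 0.19 and -1.01 on the log2 scale with no test, were smaller than those of Cdk1. Ccnb1, cyclin B1, held 61.9 and 63.7, then 68.1 and 67.8, then 54.0 and 54.7, and last 21.5 FPKM in both libraries. Its libraries were highest at E13.5 and did not overlap between any pair of stages. From E13.5 to E18.5 it fell by 1.62 on the log2 scale (SE 0.0308, limma adjusted p = 5.05e-07), and 23.4% of its 50-base windows are shared with other genes, pseudogenes among them, so its level is uncertain. Ccna2, cyclin A2, which acts from S phase into early mitosis, was at 44.8 ± 0.792 (SD, n = 2), 43.9 ± 2.58, 51.0 ± 0.354 and 16.1 ± 0.0938 in stage order. Ccnb2, cyclin B2, was the highest of the group per length at every stage, with averages of 140, 159, 181 and 89.7. The ratio of Ccnb2 to Ccnb1 went from 2.22 at E11.5 to 2.34, 3.34 and 4.17.

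Cdc25b and Cdc25c, phosphatases that activate Cdk1, differed in course. Cdc25b libraries were at 6.76 and 6.95, then 3.02 and 3.40, then 5.29 and 5.26, and last 4.45 and 3.99 FPKM in stage order. The E13.5 libraries were the lowest and those of no 2 stages overlapped. Cdc25b fell to E13.5 (log2 -0.90, SE 0.067, limma adjusted p = 3.63e-05) and was the member that rose from E13.5 to E18.5 (0.31, SE 0.067, limma adjusted p = 0.00704), a value that was -0.044 at the same FPKM total. Cdc25c averaged 25.02, 13.52, 15.1 and 6.60, and its ratio to Cdc25b was 3.65, 4.22, 2.86 and 1.56. Foxm1, a transcription factor that raises G2 and M genes, was at 3.36, 3.54, 3.93 and 1.92 FPKM, and fell from E15.5 to E18.5 by 0.76 on the log2 scale (limma adjusted p = 8.34e-05). Of the 5 entry genes tested, all 5 fell after E15.5, beside 30% of all tested genes.

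On the median-ratio scaling the mitotic kinases and the chromosomal passenger complex changed little up to E15.5 apart from Birc5. From E13.5 to E15.5 at the same FPKM total, the differences of Plk1, Aurka, Aurkb, Cdca8 and Incenp were -0.79, -0.60, -0.65, -0.64 and -0.69. That of Birc5 was -0.10. Plk1, which promotes entry, spindle assembly and exit, was at 50.9 ± 0.535 FPKM (SD, n = 2), 61.0 ± 0.510, 54.1 ± 4.88 and 23.4 ± 0.726. Aurka, the spindle pole Aurora kinase, was at 54.3 ± 0.519, 48.3 ± 2.69, 48.8 ± 0.0922 and 19.5 ± 0.437. Aurkb, the Aurora kinase of the passenger complex, was at 42.8 ± 1.31, 52.9 ± 2.20, 51.7 ± 0.0137 and 23.1 ± 1.84. Plk1 and Aurkb rose and Aurka fell between E11.5 and E13.5, so the order of the Aurora kinases turned, with a ratio of Aurka to Aurkb of 1.27 at E11.5 and 0.912, 0.944 and 0.845 later. The difference between these genes was not tested.

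Birc5, survivin, a targeting subunit of the passenger complex, stood at 58.0 and 60.4 FPKM in its first libraries, then 83.3 and 83.7, then an average of 120.3, and last 29.0 and 30.4. It was highest at E15.5 and lowest at E18.5, 4.04 times apart. For Birc5 the step to E15.5, 0.52, turned to -0.10 at the same FPKM total. Its partner Cdca8, borealin, was at 49.8, 43.7, 42.8 and 15.6, and the scaffold Incenp at 22.1, 20.9, 19.6 and 8.80. The ratio of Birc5 to Incenp was thus 2.68, 3.99, 6.13 and 3.38, while the other subunits of the complex did not share the E15.5 maximum of Birc5. All 4 tested genes of the group, Cdca8 among them (log2 -1.40, SE 0.0372, limma adjusted p = 1.25e-06), fell from E15.5 to E18.5, beside 30% of all tested genes.

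In the spindle checkpoint, Bub1b, which encodes the inhibitor BubR1, had libraries at 15.6 and 15.47, then 20.2 and 20.7, then 13.6 and 14.5, and last 6.05 and 5.79 FPKM in stage order. The E13.5 libraries were above those of every other stage, and the E18.5 libraries were far below the rest. It rose to E13.5 (log2 0.38, SE 0.0434, limma adjusted p = 0.000304), fell to E15.5 (-0.51, limma adjusted p = 0.000162), and between E13.5 and E18.5 showed the largest downward difference of any member (-1.63, SE 0.0434, limma adjusted p = 1.36e-06). Its relative Bub1, a kinase of the kinetochore, was at 11.4 and 10.6 FPKM in its E11.5 libraries and averaged 9.32, 8.29 and 2.93 afterwards, and the checkpoint kinase Ttk, known as Mps1, at 6.87, 6.13, 5.25 and 1.98. Mad2l1, the checkpoint effector Mad2, held 20.5, 21.1, 20.1 and 9.80. Bub3, the adaptor of Bub1 and BubR1, was the highest of the group per length at 60.9, 49.4, 41.1 and 33.4 and had the smallest late difference of the 5, -0.29 from E15.5 to E18.5, with no test.

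The anaphase-promoting complex was represented by Cdc20, its mitotic activator, and Ube2c, the ubiquitin-conjugating enzyme that serves it. Cdc20 averaged 218, 160 and 185 FPKM up to E15.5, and its E18.5 libraries were at 81.8 and 75.5. Ube2c averaged 117, 179 and 273 FPKM, and its E18.5 libraries were at 59.0 and 58.4. Both are among the highest of the 49 genes per length, and their order turned, Cdc20 being higher at E11.5 and Ube2c from E13.5 to E15.5. The fold from the highest to the lowest stage was 4.65 for Ube2c and 2.77 for Cdc20. The difference of Ube2c from E13.5 to E15.5, 0.60, was -0.02 at the same FPKM total. Exons of Ube2c overlap the antisense gene Tnnc2 over 22.8% of their bases, and Tnnc2 was listed at 0 in each stage.

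Pttg1, securin, which restrains separase until anaphase, barely moved. Its libraries were at 20.1 and 20.6, then 20.7 and 19.1, then 18.8 and 20.4, and last 15.8 and 17.5 FPKM in stage order. Only the E18.5 libraries lay below all others. The fall from E15.5 was small (log2 -0.23, SE 0.0668, limma adjusted p = 0.0222) and was not called without E15.5 library 2 (-0.17, limma adjusted p = 0.115), without E18.5 library 1 (-0.16, limma adjusted p = 0.115), with all split genes tested (limma adjusted p = 0.051) or at the same FPKM total (-0.06, limma adjusted p = 0.462). Separase itself, Espl1, was the lowest of the group at 1.59, 1.88, 2.79 and 0.727 FPKM, and fell from E15.5 to E18.5 (-1.14, SE 0.121, limma adjusted p = 0.000227). Securin was therefore 22.9 times as high as separase per length at E18.5 against 7.03 times at E15.5, as ratios of the averages. The E18.5 libraries of Espl1 were apart at 0.890 and 0.564 FPKM (100 and 63 reads), so the ratio at that stage is uncertain.

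Of the spindle motors and spindle proteins, 8 of 10 were lower at E13.5 than at E11.5. By limma 6 of 8 tested fell (Kif4, Kif2c, Tpx2, Nusap1, Hmmr and Ckap2), beside 37.2% of all tested genes, and 1 rose (Prc1). From E13.5 to E15.5 Kif23, Kif2c, Prc1, Nusap1 and Ckap2 fell, 5 of 8, beside 27% of all. Kif2c, a kinesin that removes tubulin from microtubule ends, had libraries at 25.2 and 24.7, then 17.2 and 18.6, then 10.9 and 11.2, and last 5.98 and 6.05 FPKM in stage order. It was lower at each step with no overlap, and the step to E15.5 was among the larger ones there (log2 -0.65, SE 0.0447, limma adjusted p = 7.38e-05). Nusap1, a microtubule-bundling protein and the highest of the group at E11.5, was at 42.7, 27.0, 22.2 and 14.0 and fell by 0.64 on the log2 scale at the first step (limma adjusted p = 1.09e-05). Tpx2, which activates Aurka on the spindle, was at 33.8, 23.3, 23.5 and 9.54, and Ckap2, a spindle-associated protein, at 23.4, 18.1, 13.51 and 10.2.

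Hmmr, a spindle assembly protein, took another course. Its libraries were at 16.7 and 16.2, then 14.0 and 13.6, then 20.6 and 22.1, and last 6.27 and 7.004 FPKM in stage order. The E15.5 libraries were the highest on the median-ratio scaling, and the E18.5 libraries the lowest. At the same FPKM total Hmmr changed by -0.38 to E13.5 and by 0.0026 to E15.5, so E15.5 was not its highest stage there. From E15.5 to E18.5 it fell by 1.55 on the log2 scale (SE 0.0591, limma adjusted p = 3.66e-06). The motor Kif11, which pushes the poles apart, averaged 10.7, 10.1, 11.2 and 3.85, and Kif4, a chromokinesin, 5.12, 4.18, 4.73 and 1.47. Kif23, a central spindle motor, was at 10.2, 11.4, 8.65 and 5.48.

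Kif20a and Prc1, which act together with Kif23 and Kif4 on the central spindle, departed from the late fall. Kif20a averaged 24.5, 21.7, 9.16 and 9.73 FPKM in stage order. Prc1, which bundles the antiparallel microtubules, had libraries at 9.10 and 8.93, then 10.6 and 10.3, then 5.28 and 5.66, and at E18.5 5.31 and 6.12. In both genes the drop came between E13.5 and E15.5, and the E15.5 and E18.5 libraries of Prc1 overlapped. For Kif20a the E15.5 to E13.5 difference was -1.16, the only one past the rule of size downward at that step. For Prc1 it was -0.82 (SE 0.0666, limma adjusted p = 0.000139), followed by 0.05 (limma adjusted p = 0.516), a value that was -0.034 without E18.5 library 2 and 0.20 at the same FPKM total (limma adjusted p = 0.0361). Exons of Kif20a overlap the antisense gene Cdc23 over 29.3% of their bases, and those of Prc1 overlap the antisense Rccd1 over 11.1%. Cdc23 was at 13.1, 9.66, 4.62 and 7.36 FPKM, highest and lowest at the same stages as Kif20a, and Rccd1 was at 2.42, 2.41, 1.80 and 1.86. Whether counting used strand is not given, and the part of these overlaps in the 2 courses was not tested.

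The 3 cytokinesis genes differed at the first step, and all 3 fell from E15.5 to E18.5, beside 30% of all tested genes. Ect2, the exchange factor that activates RhoA at the cell equator, had libraries at 6.46 and 6.48, then 9.13 and 9.54, then 8.68 and 8.69, and last 2.91 and 3.33 FPKM in stage order. It was highest at E13.5 and lowest at E18.5, and it rose at the first step (log2 0.47, SE 0.0584, limma adjusted p = 0.000443). Racgap1, the subunit of centralspindlin to which Ect2 binds, instead fell at each step, from 23.0 to 18.4, 14.4 and 9.65 FPKM. Anln, anillin, the scaffold of the contractile ring, was low throughout, at 2.39, 2.86, 3.27 and 1.71.

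Kinetochore genes showed the largest early differences between members of 1 complex. The Ndc80 complex, which holds microtubule ends, has the pair Ndc80 and Nuf2 at its microtubule end and the pair Spc24 and Spc25 at its centromere end. Nuf2 libraries were at 17.3 and 16.7, then 8.35 and 8.68, then 5.46 and 5.61, and last 3.67 and 3.30 FPKM in stage order. It was lower at each step with no overlap, and its 4.89-fold span from the highest to the lowest stage was the widest of all 49 members. At the first step it fell (log2 -0.92, SE 0.0543, limma adjusted p = 1.28e-05). Its partner Ndc80 followed, at 16.4, 10.4, 8.79 and 4.06 FPKM, with -0.60 at the first step (SE 0.0433, limma adjusted p = 3.09e-05).

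Spc24 went the other way. Its libraries were at 49.03 and 49.05, then 73.7 and 70.0 FPKM, its next average was 118, and its last libraries were at 33.0 and 31.9. It was highest at E15.5 and lowest at E18.5, with differences of 0.54, 0.71 and -1.83 in order and no test. The second of these was 0.088 at the same FPKM total. Spc25 was at 71.1 ± 2.34 (SD, n = 2), 67.3 ± 1.48, 73.0 ± 1.48 and 49.1 ± 1.69, and had the smallest late change of the group (-0.45 from E13.5 to E18.5, SE 0.0425, limma adjusted p = 0.000179). Per length, the ratio of Spc24 to Nuf2 was 2.88, 8.44, 21.3 and 9.32 in stage order, and that of Spc25 to Nuf2 was 4.17, 7.90, 13.2 and 14.1. The ratio of Ndc80 to Nuf2 stayed between 0.962 and 1.59. These ratios do not depend on the scaling of the stages. Nuf2 lies at chr1:169497934-169531464 and Spc24 at chr9:21755442-21760303, both on the minus strand.

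The large kinetochore proteins Cenpe, a motor that moves chromosomes to the spindle equator, and Cenpf, a protein of the outer kinetochore, were highest at E11.5. Cenpe averaged 26.7 FPKM there, and its later library pairs were at 13.47 and 13.2, 14.0 and 13.9, and 5.98 and 5.38. The first step of Cenpe, -0.95, was the largest downward one of any member on this scale and has no test. With a pseudocount of 0.1 it was -0.997, and that of Cdc25b, at -1.07, was larger. Cenpf was at 16.8, 8.68, 10.1 and 5.48. Cenpa, the histone H3 variant that marks centromeres, was at 48.2 ± 0.337 (SD, n = 2), 35.9 ± 1.10, 45.6 ± 0.792 and 16.7 ± 0.435, and fell after E15.5 (log2 -1.40, SE 0.0374, limma adjusted p = 1.28e-06).

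Of the chromosome structure genes, the condensin core subunits Smc2 and Smc4 were the highest per length. Smc2 was at 59.0 ± 2.39 FPKM (SD, n = 2), 39.1 ± 1.32, 53.4 ± 0.257 and 16.4 ± 0.218, and Smc4 averaged 79.5, 57.3, 73.0 and 28.5. Both were lower at E13.5 than at E15.5, a difference of 0.44 and 0.35 that turned to -0.17 and -0.27 at the same FPKM total, and their ratio, Smc4 over Smc2, lay between 1.35 and 1.74. The condensin I subunits Ncapg, Ncapd2 and Ncaph were lower per length, at 8.47, 8.22, 7.203 and 3.13 for Ncapg and 13.47, 10.3, 11.9 and 3.999 for Ncapd2, while Ncaph went from 23.1 to 9.67. All 3 fell from E15.5 to E18.5, beside 30% of all tested genes, and Ncapd2 fell the most (log2 -1.37, limma adjusted p = 4.52e-06).

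Mki67, which encodes the proliferation marker Ki-67, a coat of mitotic chromosomes, was the member higher by size at the middle step. Its libraries were at 13.53 and 13.8, then 8.17 and 8.27, then 20.7 and 20.8, and last 4.48 and 5.34 FPKM in stage order. No 2 stages overlapped, and E15.5 was the highest on the median-ratio scaling. At the same FPKM total Mki67 changed by -0.81 to E13.5 and by 0.66 to E15.5, and E15.5 was not the highest there. From E13.5 to E15.5 it rose 2.52 times in FPKM (log2 1.24, SE 0.0691, limma adjusted p = 3.54e-05), and the difference was 0.66 at the same FPKM total, where the opposite one of Kif20a, -1.74, was larger. It then fell by 1.88 on the log2 scale (SE 0.0691, limma adjusted p = 3.28e-06). Top2a, the topoisomerase that untangles sister chromatids, was at 21.6 ± 0.126 (SD, n = 2), 20.9 ± 0.723, 29.4 ± 0.168 and 7.81 ± 0.197. The ratio of Mki67 to Top2a was 0.635, 0.394, 0.706 and 0.628, so that Mki67 stood low at E13.5 beside the other marker of dividing cells. Mki67 lies at chr7:135689784-135716361 on the minus strand.

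Sequence shared with other genes could touch some of these values. Beside those named above, 10.4% of the 50-base windows of Plk1 and 10.6% of those of Cdc20 are shared, and exons of Kif4, Ncapg, Cdc25c and Ccna2 overlap an antisense gene over 15.1%, 13.4%, 12.7% and 12.5% of their bases. Without the members past 10% on either count, 39 were left, of which 22 were lower by size from E15.5 to E18.5 and 23 from E13.5 to E18.5, a check chosen after seeing the data.

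Other genes of the cycle were set beside the members. Among 79 measured further mitotic genes, limma found 62 of 68 fallen and 1 risen from E15.5 to E18.5, beside 30% and 38.4% of all tested genes. From E13.5 it found 63 and 1, beside 24% and 36%. The medians of these further mitotic genes were -0.81 and -0.92. Those with the largest differences from E13.5 to E18.5 were Cdca5 (sororin, which protects cohesion, 27.8 to 8.73 FPKM), Cenph and Cenpn (inner kinetochore, 44.95 to 17.0 and 14.4 to 4.74) and Lmnb1 (lamin B1 of the nuclear envelope, 20.1 to 7.04). Each of these fell (limma adjusted p = 1.25e-05, 5.43e-05, 1.59e-06 and 1.59e-06). The mitotic members themselves had medians of -1.13 and -1.09 over the same spans.

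DNA replication genes were tested in the same way. Of 34 tested, 17 rose and 5 fell from E11.5 to E13.5, beside 30.9% and 37.2% of all tested genes. From E13.5 to E15.5 3 rose and 20 fell, beside 28.5% and 27%. The medians of 0.12 and -0.25 at these steps were -0.0060 and -0.80 at the same FPKM total, where the members' were -0.27 and -0.59. From E13.5 to E18.5 all 34 fell, beside 24% of all tested genes, with a median of -1.17. Ccne1 and Ccne2, the E cyclins of S phase entry, went from 31.0 to 6.76 and from 17.0 to 4.91 FPKM, and Rrm1 and Rrm2, the subunits of ribonucleotide reductase, from 19.4 to 6.25 and from 145.8 to 39.7. Ccne1 was already at 20.1 and Ccne2 at 8.89 at E15.5, the stage at which Mki67 was highest on the median-ratio scaling. The difference between the lists was not tested.

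Regulators of the cycle moved in both directions. Of 26 tested, 9 rose and 13 fell from E13.5 to E18.5, beside 36% and 24% of all tested genes, with a median of -0.24 among 32 measured. The inhibitors of cyclin D kinases Cdkn2c and Cdkn2b went from 1.17 to 6.18 and from 1.27 to 5.78 FPKM (log2 1.73 and 1.61, limma adjusted p = 6.72e-06 and 0.00209). Btg2, an antiproliferative gene, went from 75.2 to 208 FPKM with no test. Mybl2, the MYB factor that binds the G2 and M gene promoters with the MuvB core, fell from 6.69 to 2.60 FPKM (log2 -1.09, limma adjusted p = 8.88e-06).

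**Figure D5:**
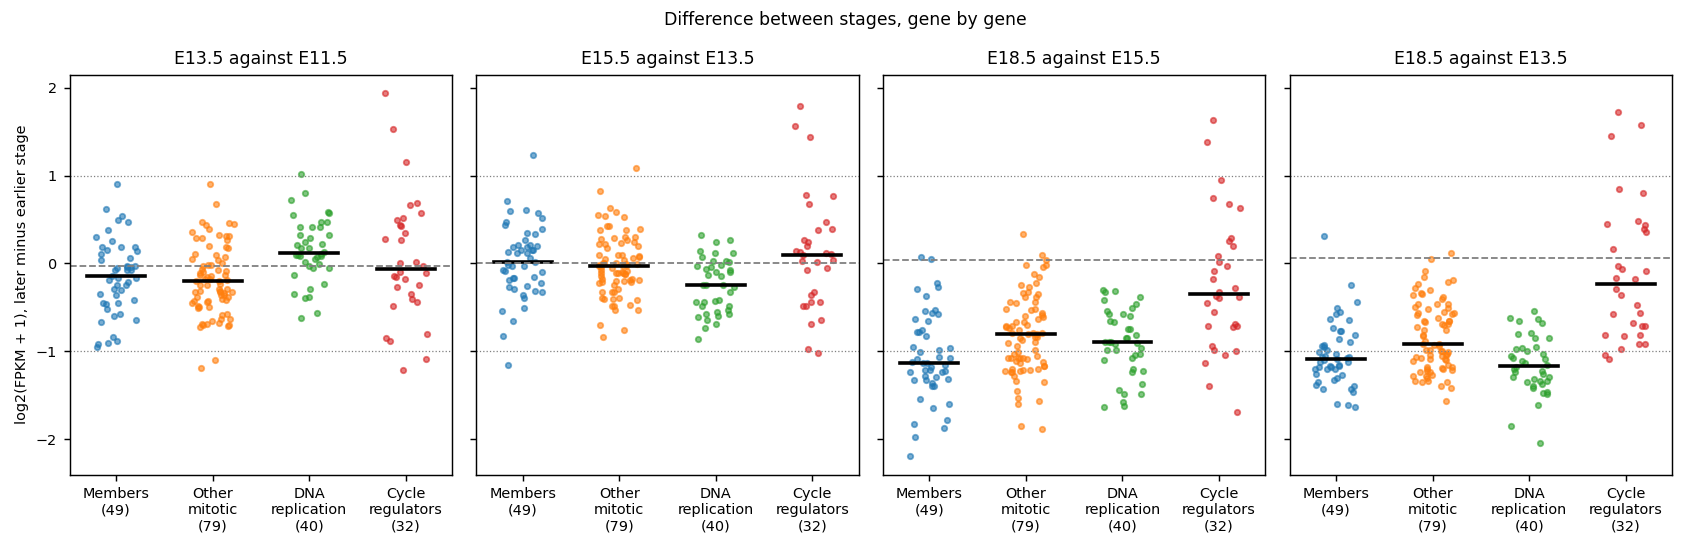
Difference of log2(FPKM + 1) between stages (y axis) for each measured gene of 4 lists (x axis) in the 4 comparisons; black bars are list medians, the dashed line is the median of all measured genes and the dotted lines mark 2-fold. In both comparisons with E18.5 the members (medians -1.13 and -1.09), other mitotic genes and replication genes lie mostly below 0, while the cycle regulators spread to both sides.

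The makeup of the samples moved with the stages compared. Between E11.5 and E13.5 the summed level of 12 erythroid markers went from 9809 to 266 FPKM, that of 12 neural and glial markers from 1498 to 28.4, of 15 mesenchymal markers from 295 to 55.6 and of 5 mesothelial markers from 29.8 to 1.87, while 10 endothelial markers were at 6.35 and 14.6, with Cdh5 at 0 at E11.5 and Flt1 and Tek at 0 at E13.5. Of the endothelial sums, 4.30 and 13.7 came from 1 gene, and the list median went from 0.175 to 0.00806. The 10 leukocyte markers were at 93.3, 20.5, 195 and 123 in stage order, and none of them was at 0. At E15.5 a level of 176 in the leukocyte sum came from 1 gene. In the later pair of stages the erythroid sum was 295 and 640, with Hbb-bh1 at 0 at E15.5 and Hba-x, Hbb-bh1 and Hbb-y at 0 at E18.5. Neural and glial markers were then at 21.2 and 61.0, mesenchymal ones at 54.4 and 91.8, mesothelial ones at 0.741 and 2.90, and endothelial ones at 19.7 and 10.1, with Emcn and Tie1 at 0 at E15.5 and Cdh5, Kdr, Tek and Tie1 at E18.5. Of these endothelial sums, 18.6 and 9.29 came from 1 gene. The 20 acinar genes summed to 9.37, 6496, 121188 and 68923 FPKM, with 9 of them at 0 at E11.5, and the 18 endocrine genes to 664, 4220, 4066 and 39426, with Ins2 at 0 at E11.5. The endocrine share of all FPKM went from 0.777% at E15.5 to 8.51% at E18.5, the step at which the mitotic genes fell. The part of these shifts in the levels of the mitotic genes was not tested.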

How the data were processed

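RNA was sequenced from 1 sample per stage. The submitters' processing notes name HISAT2 version 2.0.5 and the mm10 build. Not given in the sources used here were the counting tool, its annotation, the use of strand and the number of libraries in a stage. The values are FPKM per Ensembl gene, deposited as averages per the file headers. GENCODE M21, on the same build, named 54495 of the 54532 IDs and gave coordinates and exon lengths.

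Stages were scaled by the median of ratios over the 9884 genes that reached 1 FPKM in every stage, with factors from 0.962 to 1.03. Counts by size (2-fold on log2(FPKM + 1), higher value at least 5 FPKM) are among the 14841 genes that reached 1 FPKM in at least 1 stage. An average was split into whole reads of 2 libraries if a single pair matched it to 1 unit of the final digit and chance would give at most 0.05 pairs. This worked for 96.3% to 96.5% of the genes attempted. Library 1 is the one with the larger FPKM denominator. The split rests on the values alone, no label states it, and denominators were not plain read totals. Spread between the 2 libraries was 1.24 to 1.36 times that of counting alone. For 13062 genes split in all libraries, limma 3.58.1 (R 4.3.3) was fitted to the log2 values using a mean-variance trend, and p-values were adjusted by Benjamini-Hochberg. The steps were run on simulated data made with the same exon lengths that the split uses. Such data cannot show that these lengths are the ones behind the deposited values. Values after ± are the SD of 2 libraries.

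The members and the other gene lists were chosen with earlier results of these data known. All members are described by role. For each comparison the rule for full values took the 3 highest and 3 lowest differences and any against the sign of the member median by over 0.5, for each role the highest member and the largest late change, and for each other list up to 4 genes with the largest difference from E13.5 to E18.5. Promoter windows and their sequences came from RefSeq on GRCm38.p6, and members on chromosome 18 were not shown. Other pseudocounts, minima, folds, scalings and fits, and leaving out each library, were tried as alternatives.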

Additional observations from a re-analysis of the deposited data

How the results depend on the processing

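No paired analysis was possible because the labels give 1 sample per stage and no replicate number that links samples. The late fall held under the alternatives tried. From E15.5 to E18.5 between 20 and 35 members were lower by size, from E13.5 to E18.5 between 30 and 41 (23 of 39 without members that share sequence), and none was higher. When each library was left out in turn, limma found 34 to 35 fallen members and 0 risen at E18.5 against E15.5, 34 to 35 and 1 against E13.5, 5 to 8 risen and 14 to 17 fallen at E13.5 against E11.5, and 8 to 10 and 11 to 14 at E15.5 against E13.5.

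The earlier steps depended on the scaling. Setting stages to the same FPKM total moved the median of all genes to -0.16, -0.41, 0.14 and -0.24 in the order E13.5 against E11.5, E15.5 against E13.5, E18.5 against E15.5 and E18.5 against E13.5, and the member median to -0.27, -0.59, -0.95 and -1.51. At E13.5 against E11.5 the members lower by size were then 4, also 4 when acinar, endocrine and erythroid genes were kept out of the total, 1 with a pseudocount of 0.1, and 8 at 1.5-fold, where 2 were higher. At E15.5 against E13.5 there were 0 higher and 5 lower, 0 and 2 without those genes, and 4 and 3 at 1.5-fold. By limma at the same total 4 members rose at the first step, 1 rose and 32 fell at the second, 1 rose at E18.5 against E15.5 and 0 rose against E13.5. Cdc25b at E18.5 against E13.5 turned to -0.044 (limma adjusted p = 0.603), and Prc1 at E18.5 against E15.5 to -0.034 without E18.5 library 2 (limma adjusted p = 0.652). The cause was not tested. All members were detected, and for 9 of them depth was too high for the reads to be split at every stage.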
